A study of Hydra vulgaris with 5 samples.

Results

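The nuclear-encoded genes of mitochondrial respiration were followed through single-cell libraries of the Hydra vulgaris hypostome, the mouth cone at the top of the head, and of tissue regenerating it. They were found by description: an entry of the count tables was taken if its annotation named ATP synthase, cytochrome c oxidase, NADH dehydrogenase, NADH:ubiquinone oxidoreductase, the cytochrome bc1 complex, succinate dehydrogenase, ADP_ATP (for the ADP/ATP carrier) or citrate synthase. Of 46156 entries 101 matched, with 33 for complex I, 8 for complex II, 11 for complex III, 24 for complex IV, 23 for complex V and 2 for the citrate synthase wording. By their descriptions 76 were subunits, 21 were assembly or expression factors and 2 did not say which. Of the citrate synthase matches 1 was mitochondrial citrate synthase and 1, Sc4wPfr_1373.g9100, was ATP-citrate synthase, a cytosolic enzyme that splits citrate. The ADP_ATP wording matched 0 entries, because the tables spell that carrier with a comma, and its 2 entries are described apart from the 101.

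The study profiled intact and regenerating heads of Hydra strain 105. There were 2 hypostome libraries (hypostome 1 and hypostome 2) and 1 library of regenerating hypostome at each of 0 h, 4 h and 12 h. All tissue was dissociated with Pronase E, and 3′ libraries were made from the cells with the SureCell kit and read as 43 bp pairs. The labels do not say whether the hypostome libraries came from separate animals or how many animals were pooled in any library, so p-values below measure only the spread between these libraries.

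Mitochondrial respiration passes electrons from NADH, through complex I, or from succinate, through complex II, to complex III, then by cytochrome c to complex IV, which reduces oxygen. Complexes I, III and IV pump protons, and complex V, the ATP synthase, makes ATP as the protons flow back through its rotor. Most subunits are encoded in the nucleus and imported, while a small core of the membrane subunits is encoded in mitochondrial DNA. The mitochondrially encoded genes are not analysed here.

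Counts were summed per library over barcodes with at least 200 detected genes. This kept 110 of 1008 deposited barcodes in hypostome 1 and 168 of 2390 in hypostome 2. At 0 h, 4 h and 12 h it kept 2332 of 2946, 2782 of 3238 and 64 of 4411. One entry, MSTRG.22171, took between 4.63% and 35.6% of the summed counts and was removed before scaling. That left 129433, 213647, 1209613, 1605812 and 52713 counts in the same order of libraries. The barcodes left out held 177124 and 472256 such counts in hypostome 1 and hypostome 2, against 150197 at 0 h and 115261 at 4 h. The cut therefore fell unevenly on the compared groups. The labelled tissue was checked against a head marker. Entries of KS1, a head-specific gene, made up 0.366% and 0.383% of counts in hypostome 1 and hypostome 2, against 0.0629% at 0 h and 0.0390% at 4 h, with 0 counts at 12 h. Nematocyte (stinging cell) entries made up 2.53% and 1.58% in the hypostome libraries, against 0.506% at 0 h and 0.607% at 4 h, with counts in 26 of 33 entries in each hypostome library, against 31 at 0 h and 32 at 4 h. Endodermal epithelial entries made up 1.43% and 1.51% in the hypostome libraries, against 2.10% at 0 h and 1.92% at 4 h, with counts in 43 and 41 of 70 entries in the hypostome libraries, against 55 at 0 h and 53 at 4 h. The 12 h library stood apart, with 55 of the 101 respiration entries at 0 counts, and is kept out of the tests.

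Summed over all 101 entries, respiration transcripts made up slightly less of the counts in the hypostome than in early regenerating tissue. The summed share was 0.803% in hypostome 1 and 0.842% in hypostome 2, against 0.944% at 0 h and 0.877% at 4 h. Both hypostome libraries lay below both regenerating ones. Their mean was 0.822% ± 0.0278 (SD, n = 2), against 0.911% for the mean of 0 h and 4 h, a ratio of 0.903. The ratio lay above 1, at 1.11, when MSTRG.22171 was kept in the totals, since that entry took 35.6% of counts at 4 h, and at 1.06 when the 12 h library joined the regenerating side. In sums over whole libraries, fewer cells of a type and less RNA per cell cannot be told apart.

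**Figure D1:**
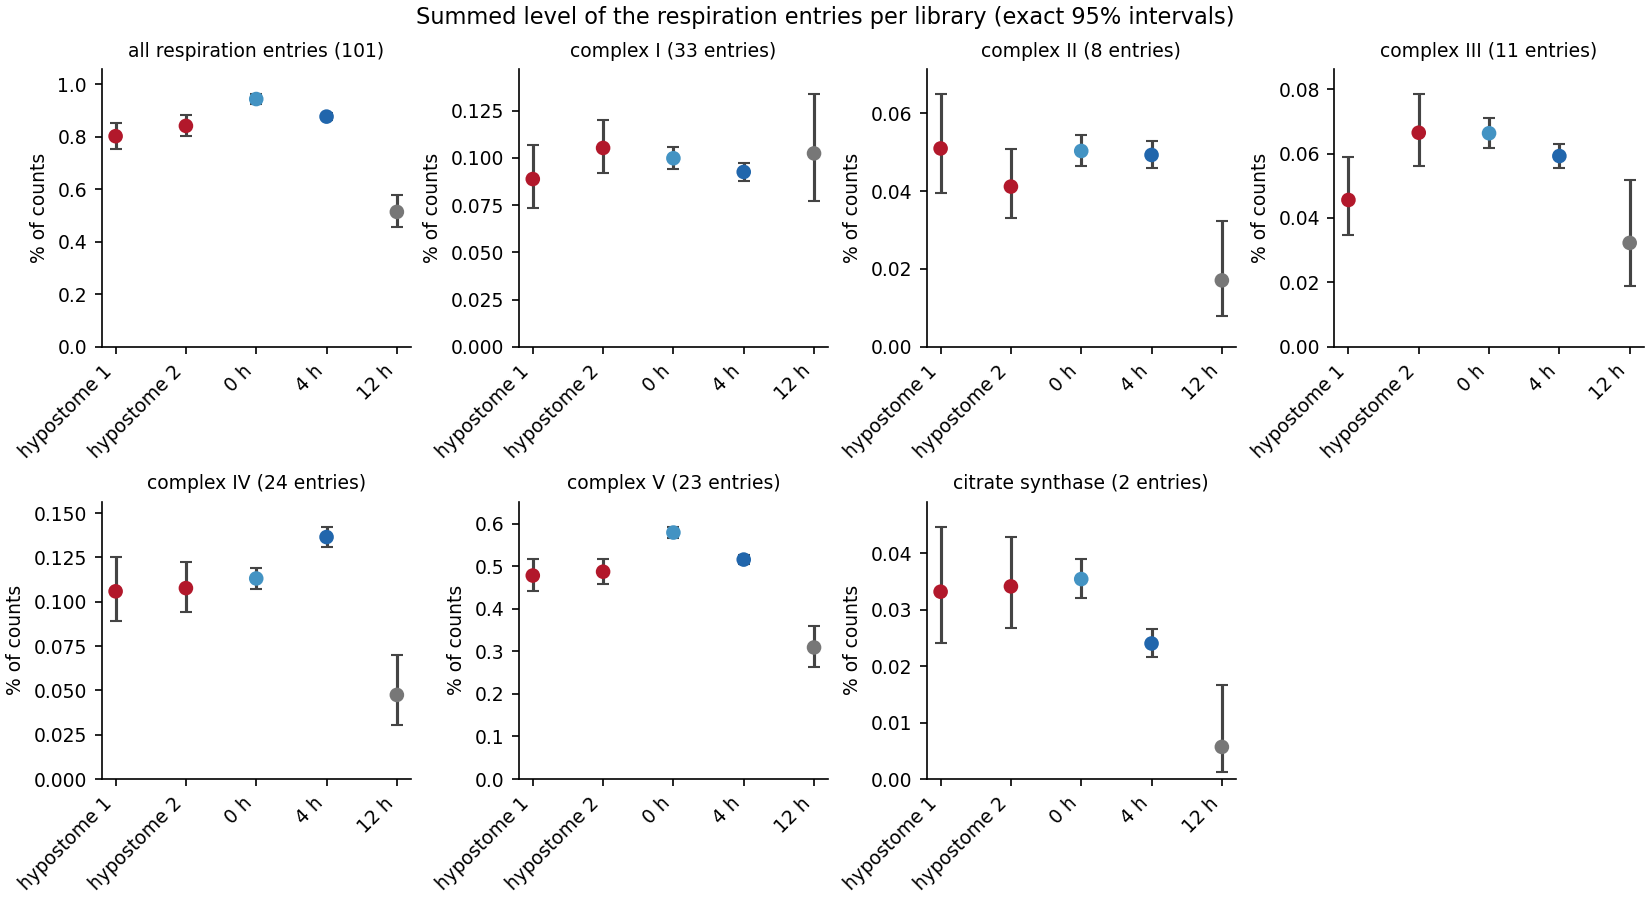
Summed counts of the respiration entries as a percentage of each library's counts, for all 101 entries and by complex, with exact 95% binomial intervals; red points are the hypostome libraries, blue points 0 h and 4 h and the grey point 12 h. Complex V carries most of the difference between hypostome and early regenerating libraries, and complex I alone stays level in the 12 h library.

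Complex by complex, the ATP synthase and cytochrome c oxidase entries separated the groups and the others did not. Complex V made up 0.478% and 0.487% of counts in hypostome 1 and hypostome 2, against 0.579% at 0 h and 0.516% at 4 h, with a ratio of means of 0.882. Complex IV made up 0.106% and 0.108% in the hypostome libraries, against 0.113% at 0 h and 0.136% at 4 h, with a ratio of 0.856. For complexes I, II and III the groups overlapped, with ratios of 1.01, 0.925 and 0.893, and for the citrate synthase entries the ratio was 1.13. With MSTRG.22171 kept, each of these ratios lay above 1, between 1.07 and 1.36. With the 12 h library added, all but that of complex I, at 0.988, lay above 1.

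Each entry was then tested with edgeR's quasi-likelihood test over the whole table, hypostome against 0 h and 4 h, with p-values adjusted over 7682 tested entries. The 0 h and 4 h libraries stood together as the regenerating side, so their difference in time is part of the error. Of the 101 respiration entries 61 had enough counts for the test, 40 did not, and 3 of those 40 had 0 counts in all libraries. At an adjusted p under 0.05 edgeR called 0 of the 61, against 3.12% of all tested entries (1.91% higher and 1.21% lower in the hypostome). DESeq2 also called 0 of the 61, against 263 of all 7682 entries. With limma 0 of all entries were called, so its 0 of the 61 adds nothing on the respiration entries. An unadjusted p under 0.05 was reached by 3 of the 61 in edgeR, against 21.2% of all entries. In DESeq2 it was reached by 1 of the 61, against 918 of all 7682 entries, and in limma by 4, against 1439. The standard errors of the 61 ran from 0.24 to 1.45 on the log2 scale, with a median of 0.40. They stayed near 0.24 also for the respiration entry with the most counts, Sc4wPfr_248.g29618, close to the lowest of all tested entries, 0.23. Differences of the size seen in the sums were therefore within the error of a single entry.

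As a group the tested entries leaned towards lower values in the hypostome. Their median log2 fold change was -0.32, where that of all tested entries was -0.05, and 49 of 61 were below 0, against 52.3% of all entries. In 22 entries both hypostome libraries lay below both regenerating ones, against 22.8% of all entries, and in 8 they lay above, against 28.4%. By complex the medians were -0.28 for complex I (17 tested), -0.25 for complex II (5), -0.25 for complex III (8), -0.58 for complex IV (13) and -0.46 for complex V (17). With library totals in place of TMM factors the median of all entries was 0.07 and that of the respiration entries was -0.19. In barcodes with at least 500 genes the respiration median was -0.02, beside -0.002 for all entries there.

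**Figure D2:**
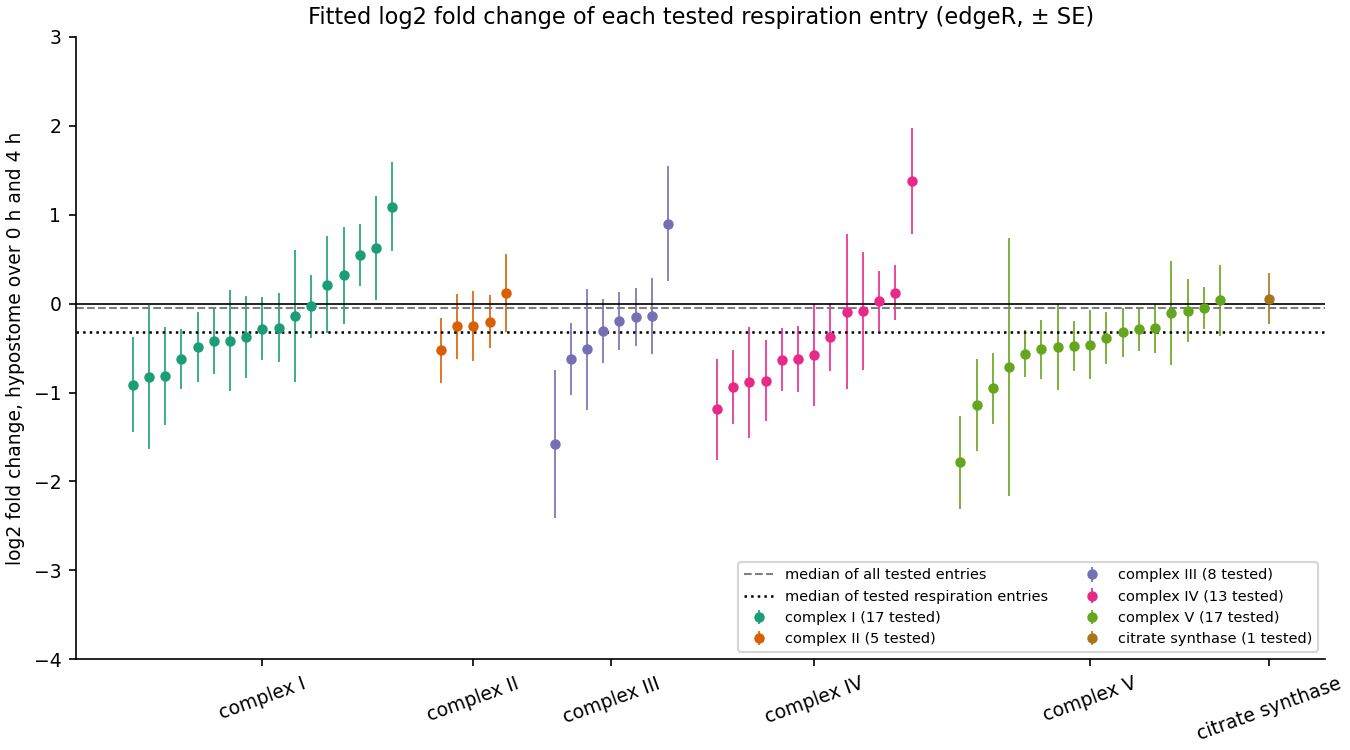
Fitted log2 fold change of each of the 61 tested respiration entries, hypostome over 0 h and 4 h, with its standard error, grouped by complex along the horizontal axis; the dashed line is the median of all tested entries and the dotted line that of the respiration entries. Values run from -1.79 to 1.38, and 16 of the 17 complex V entries lie below 0.

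The ATP synthase entries with the most counts had small fold changes between hypostome and regenerating libraries. CPM values here are counts per 1000000 counts without MSTRG.22171; they are not corrected for transcript length and are compared between libraries only. Sc4wPfr_248.g29618, an ATP synthase subunit whose letter the table does not give, had 1499 and 1432 CPM in hypostome 1 and hypostome 2, against 1519 at 0 h and 1273 at 4 h, and 797 at 12 h. Its hypostome libraries lay between 0 h and 4 h, and the log2 fold change was -0.05 ± 0.24 (SE), with an edgeR adjusted p of 0.937. This entry held 25.9% of the complex V counts, and with the entry of most counts left out of each sum, an alternative chosen after seeing the data, the complex V ratio was 0.824.

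Sc4wPfr_826.g32469, another ATP synthase subunit, had 1113 and 1067 CPM in the hypostome libraries, against 1383 at 0 h and 1075 at 4 h, a fold change of -0.29 ± 0.25 on the log2 scale (SE; adjusted p = 0.562 in edgeR). Sc4wPfr_144.2.g1680, subunit c of the membrane rotor, had 518 and 599 CPM in the hypostome libraries, against 623 at 0 h and 654 at 4 h. This entry was lower in both hypostome libraries, by a log2 fold change of -0.32 ± 0.27 that did not pass the test (edgeR adjusted p = 0.567). The ATP synthase lipid-binding entry, MSTRG.4259, had 108 and 112 CPM in the hypostome libraries, against 109 at 0 h and 165 at 4 h, which overlapped. Sc4wPfr_264.g27472, a further subunit, had 379 and 459 CPM in the hypostome libraries, against 503 at 0 h and 435 at 4 h, which overlapped. Next by counts, MSTRG.22444, Sc4wPfr_224.g18103 and MSTRG.12866 were lower in both hypostome libraries. Their log2 fold changes were -0.56 ± 0.27, -0.48 ± 0.28 and -0.39 ± 0.30 (SE), with edgeR adjusted p of 0.277, 0.376 and 0.512. Of the 17 tested complex V entries, both hypostome libraries lay below both regenerating ones in 9, against 22.8% of all tested entries. They lay above in 1, against 28.4%.

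The respiration entry with the lowest adjusted p was an ATP synthase subunit isoform X2, Sc4wPfr_356.g7150. It had 46.4 and 32.8 CPM in hypostome 1 and hypostome 2, against 84.3 at 0 h and 153 at 4 h, and 94.9 at 12 h. These values rest on 6 and 7 counts in the hypostome libraries, against 102 at 0 h, 246 at 4 h and only 5 at 12 h. Both hypostome libraries lay below 0 h and 4 h, and also below 12 h, which stayed out of the test. The entry had a log2 fold change of -1.79 ± 0.52 (SE), with an edgeR adjusted p of 0.108. Over the alternatives its adjusted p ran from 4.30e-04 with no filter on low counts to 0.392 with the 12 h library added, and it was also called with 1 term per time point (0.0182) and without the 0 h library (0.00289). With all deposited barcodes its log2 fold change was -0.86, and without the 4 h library it was -1.11.

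Complex IV, the terminal oxidase, held both the most positive fold change and several entries low in the hypostome. A cytochrome c oxidase subunit 6B1-like entry, MSTRG.23508, whose counterpart in mammals sits on the outer face of the complex, had 139 and 112 CPM in the hypostome libraries, against 155 at 0 h and 272 at 4 h. Both hypostome values were the lower ones, at a fold change of -0.94 ± 0.42 on the log2 scale (SE; adjusted p = 0.250 in edgeR), and with no filter on low counts edgeR called it (adjusted p = 0.0166). A COX15 homologue, Sc4wPfr_715.g30407, needed in yeast and mammals to make heme A for the oxidase, had 7.73 and 32.8 CPM in the hypostome libraries, against 54.6 at 0 h and 42.3 at 4 h. COX15 had a fold change of -1.19 ± 0.57 on the log2 scale (adjusted p = 0.274 in edgeR). The hypostome libraries themselves differed, but their values rest on only 1 and 7 counts, against 66 at 0 h and 68 at 4 h.

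A subunit 4-like entry, Sc4wPfr_1806.g25253, a nuclear subunit that regulates the oxidase in mammals, had 131 and 159 CPM in the hypostome libraries, against 126 at 0 h and 120 at 4 h, a fold change of 0.12 ± 0.31 on the log2 scale (SE; adjusted p = 0.869 in edgeR). The subunit 6C-like entry MSTRG.24627 had 178 and 159 CPM in the hypostome libraries, against 151 at 0 h and 240 at 4 h, and overlapped. The identifier MSTRG.14119 stood in the table under 2 spellings of the same subunit description, with different counts. The lower-case entry had 30.9 and 65.5 CPM in the hypostome libraries, against 12.4 at 0 h and 22.4 at 4 h, the highest log2 fold change of the 61, 1.38 ± 0.60 (edgeR adjusted p = 0.235). Its values rest on 4 and 14 counts in the hypostome libraries, against 15 at 0 h and 36 at 4 h. The capitalised entry had 278 and 164 CPM in the hypostome libraries, against 192 at 0 h and 195 at 4 h, a log2 fold change of 0.03 ± 0.34. Entries with a repeated identifier, 14 of the 101, may divide the reads of 1 gene, so their single values are uncertain.

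Complex I, the entry point for NADH, had fold changes below 0 in 12 of its 17 tested entries. Among those 17, both hypostome libraries lay above both regenerating ones in 4 entries, against 28.4% of all tested entries, and below them in 4, against 22.8%. An alpha subcomplex subunit 13 entry, Sc4wPfr_262.g16787, an accessory subunit, had 30.9 and 51.5 CPM in the hypostome libraries, against 18.2 at 0 h and 18.7 at 4 h, with 0 counts at 12 h. This entry had 4 and 11 counts in the hypostome libraries, against 22 at 0 h and 30 at 4 h. It was higher in both hypostome libraries, at a fold change of 1.09 ± 0.50 on the log2 scale (SE; adjusted p = 0.257 in edgeR). In the other direction the iron-sulfur subunit entry MSTRG.1069, whose number is not given, had 77.3 and 74.9 CPM in the hypostome libraries, against 105 at 0 h and 109 at 4 h. Its log2 fold change was -0.62 ± 0.34 (SE), with an edgeR adjusted p of 0.338.

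Of the 4 tested complex I entries with the most counts, all but MSTRG.1069 overlapped between the groups. MSTRG.11737, also an iron-sulfur subunit, had 147 and 84.3 CPM in the hypostome libraries, against 117 at 0 h and 94.0 at 4 h. The flavoprotein entry Sc4wPfr_1593.g7865, whose subunit number is not given, had 30.9 and 131 CPM in the hypostome libraries, against 90.1 at 0 h and 52.3 at 4 h. The gap was wider inside the hypostome group than between the groups. The accessory alpha subunit 6 entry, Sc4wPfr_608.1.g30577, had 54.1 and 74.9 CPM in the hypostome libraries, against 76.1 at 0 h and 71.6 at 4 h. Next by counts, another flavoprotein entry, Sc4wPfr_173.2.g32983, was higher in both hypostome libraries, at 92.7 and 108 CPM, against 57.9 at 0 h and 67.9 at 4 h. The iron-sulfur entry Sc4wPfr_1096.g19444 was lower in both, at 61.8 and 46.8 CPM, against 66.1 at 0 h and 64.1 at 4 h.

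Complex II, which oxidises succinate and belongs to the citric acid cycle as well, differed little. The cytochrome b560 membrane anchor MSTRG.3540 held 48.3% of its counts, with 239 and 215 CPM in hypostome 1 and hypostome 2, against 229 at 0 h and 247 at 4 h (fold change of -0.21 ± 0.30 on the log2 scale; adjusted p = 0.759 in edgeR). The small cytochrome b anchor Sc4wPfr_854.g18478 had 77.3 and 51.5 CPM in the hypostome libraries, against 81.8 at 0 h and 82.2 at 4 h, below in both but not past the test (fold change of -0.52 ± 0.37 on the log2 scale; adjusted p = 0.469 in edgeR). The catalytic flavoprotein Sc4wPfr_1138.g31304 and the iron-sulfur subunit Sc4wPfr_593.g21580 had log2 fold changes of -0.25 ± 0.39 and -0.25 ± 0.37.

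Complex III, which passes electrons from ubiquinol to cytochrome c, had groups that overlapped in its entries with the most counts. Another 4 entries under other names, not among the 101, had 0 counts in either hypostome library, against 12 at 0 h and 15 at 4 h. A count of 0 allows shares of up to 0.00285% and 0.00173% in hypostome 1 and hypostome 2 (exact 95% interval), above the 0.000992% at 0 h and 0.000934% at 4 h, so no difference was detectable. Sc4wPfr_854.g18411 had 124 and 173 CPM in the hypostome libraries, against 179 at 0 h and 139 at 4 h, and Sc4wPfr_177.1.g6161 had 108 and 145 CPM, against 146 at 0 h and 118 at 4 h. Of the small subunits, subunit 8 (Sc4wPfr_1463.g9564) had 38.6 and 23.4 CPM in the hypostome libraries, against 9.92 at 0 h and 18.1 at 4 h, a fold change of 0.90 ± 0.65 on the log2 scale (SE; adjusted p = 0.483 in edgeR). Subunit 7 (Sc4wPfr_516.2.g9793) went the other way, with 7.73 and 4.68 CPM in the hypostome libraries, against 14.1 at 0 h and 18.1 at 4 h. Its log2 fold change was -1.57 ± 0.83 (SE), with an edgeR adjusted p of 0.327. These values rest on few counts: 5 in each hypostome library for subunit 8 and only 1 in each for subunit 7, against 17 at 0 h and 29 at 4 h for subunit 7. Mitochondrial citrate synthase, Sc4wPfr_1007.g33081, the first enzyme of the citric acid cycle, had 324 and 318 CPM in the hypostome libraries, against 344 at 0 h and 230 at 4 h, so that 4 h was the lowest of the 4 (fold change of 0.06 ± 0.29 on the log2 scale; adjusted p = 0.943 in edgeR).

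The 4 h library was set against the 0 h library, with 1 library each and so no replicate check; intervals cover counting error only. Relative to the other entries, complex IV was higher at 4 h and citrate synthase lower. The summed share of complex IV was 0.136% at 4 h, against 0.113% at 0 h, a ratio of 1.21 (95% interval 1.13 to 1.29). For complex V it was 0.516% at 4 h, against 0.579% at 0 h, a ratio of 0.890 (0.862 to 0.919). Complexes I and II had ratios of 0.927 (0.859 to 1.001) and 0.980 (0.880 to 1.09), complex III 0.893 (0.812 to 0.982), and the citrate synthase entries 0.678 (0.589 to 0.780).

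These ratios depend on the scaling, since the median ratio of all 5569 entries with at least 50 counts was 0.872, or 1.02 with TMM factors and 0.646 with MSTRG.22171 kept. Complex IV stood at 1.40 with TMM factors and 0.894 with MSTRG.22171 kept, and complex V at 1.04 and 0.660, so both directions flip with the scaling. Complex IV lay above the median of all entries under each of these scalings, and citrate synthase lay below it, at 0.789 and 0.502. Without its entry of most counts complex IV had a ratio of 1.12. The citrate synthase ratio is that of 1 entry, Sc4wPfr_1007.g33081, which held 96.1% of the counts of that wording in hypostome 1, hypostome 2, 0 h and 4 h. Without it the ratio was 0.985, from the ATP-citrate synthase entry alone.

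Among 54 respiration entries with at least 50 counts, 2 were at least 2-fold higher at 4 h, against 3.99% of all entries, and 0 were at least 2-fold lower, against 4.42%. Their median ratio was 0.942. The counting interval lay above 1 for 6 entries, against 11.8% of all entries, and below 1 for 13, against 25.8%. The entries at least 2-fold higher were small subunits. An alpha subcomplex subunit 2 entry of complex I, Sc4wPfr_96.g11948, had 27.4 CPM at 4 h, against 12.4 at 0 h, a ratio of 2.21 (1.21 to 4.27). The bc1 subunit 10-like entry MSTRG.16807 had 69.1 CPM at 4 h, against 31.4 at 0 h, a ratio of 2.20 (1.51 to 3.27).

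**Figure D3:**
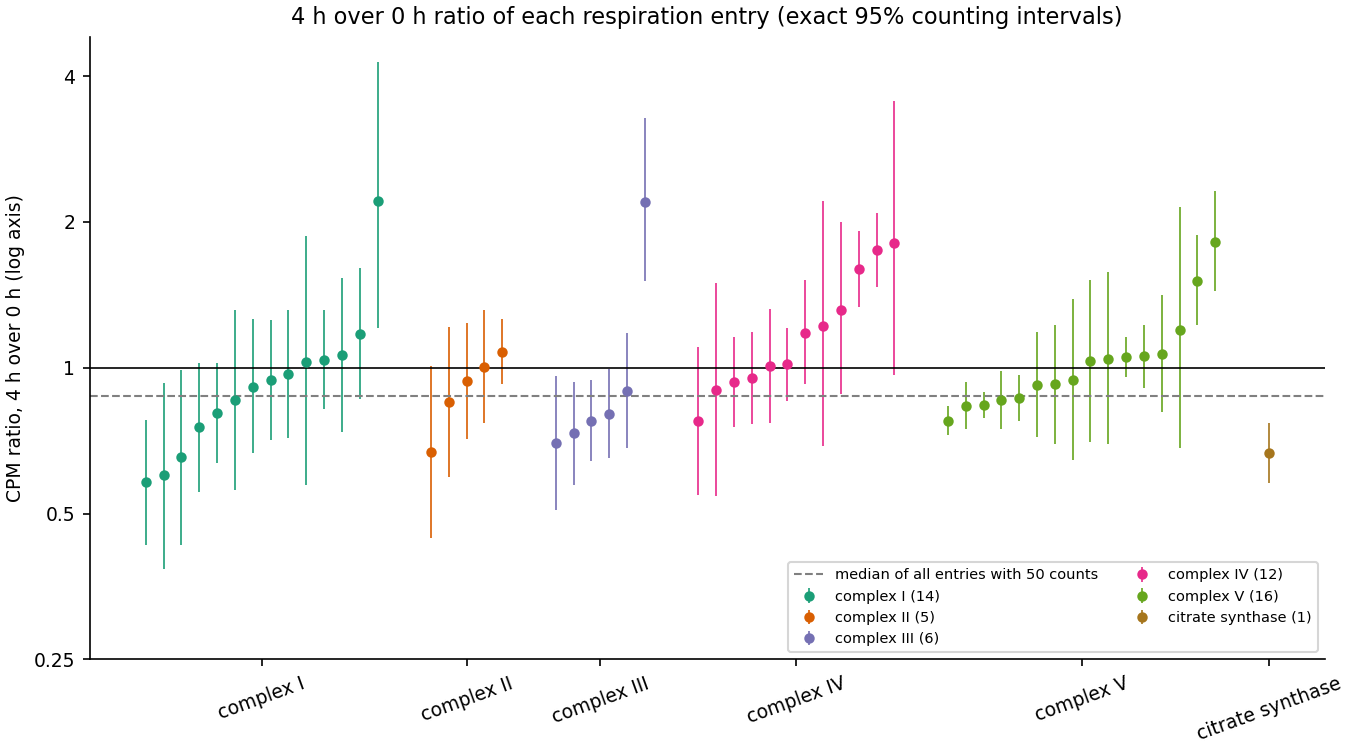
Ratio of CPM at 4 h over 0 h for the 54 respiration entries with at least 50 counts over both libraries, on a log axis, with exact 95% counting intervals and the entries grouped by complex; the dashed line is the median of all 5569 entries. Most entries lie between 0.58 and 1.3, and the subunit 6B1-like and 6C-like entries of complex IV are among the few above 1.5.

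The isoform X2 subunit of ATP synthase described above, Sc4wPfr_356.g7150, was 1.82-fold higher at 4 h (1.44 to 2.31). The subunit 6B1-like and 6C-like entries of complex IV, MSTRG.23508 and MSTRG.24627, had ratios of 1.75 (1.47 to 2.08) and 1.60 (1.34 to 1.92). On the low side, the ATP synthase entries Sc4wPfr_826.g32469 and Sc4wPfr_248.g29618 had ratios of 0.777 (0.726 to 0.832) and 0.838 (0.786 to 0.893). The lowest ratios among entries with at least 50 counts were in complex I, 0.581 (0.431 to 0.779) for the flavoprotein Sc4wPfr_1593.g7865, 0.600 (0.383 to 0.932) for alpha subunit 5 (Sc4wPfr_356.g7057) and 0.654 (0.431 to 0.989) for a beta subunit (Sc4wPfr_439.g20872). Just under that minimum, with 47 counts, the complex V entry Sc4wPfr_713.g5226, singled out after its values were seen, had 3.11 CPM at 4 h, against 34.7 at 0 h, a ratio of 0.0897 (0.0277 to 0.226). Entries of one complex therefore differed in opposite directions between these libraries.

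The 12 h library held 271 respiration counts over 64 barcodes and made up 0.514% of its counts, against 0.944% at 0 h, a ratio of 0.544 (0.481 to 0.614). Complexes II, III, IV and V had ratios of 0.339, 0.486, 0.419 and 0.534, and the citrate synthase entries 0.160, each with its interval below 1. Complex I stood at 0.102% at 12 h, against 0.0999% at 0 h, a ratio of 1.03 (0.766 to 1.35). Of its 54 counts at 12 h 10 came from 1 iron-sulfur entry, Sc4wPfr_306.g757, which was singled out after its values were seen and had 190 CPM at 12 h, against 4.13 at 0 h. That entry also had 0 and 56.2 CPM in hypostome 1 and hypostome 2 and 5.60 at 4 h. Cytosolic ribosomal proteins, at 8.40% at 12 h, against 15.5% at 0 h, had a ratio of 0.540, and glycolysis entries a ratio of 0.232.

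The respiration share was compared within classes of barcode depth, because the libraries differed in their mix of depths. Barcodes with at least 500 genes made up 38.2% and 29.8% of the used barcodes of hypostome 1 and hypostome 2, against 4.03% at 0 h, 3.99% at 4 h and 20.3% at 12 h. In barcodes with at least 500 genes it was 0.875% and 0.889% in hypostome 1 and hypostome 2, against 1.02% at 0 h and 1.005% at 4 h, and 0.706% at 12 h. In barcodes with 300 up to 500 genes it was 0.519% and 0.633% in the hypostome libraries, against 0.890% at 0 h and 0.821% at 4 h. In barcodes with 200 up to 300 genes it was 0.657% and 0.737%, against 0.914% at 0 h and 0.834% at 4 h. The hypostome libraries lay below 0 h and 4 h in every class. The share also averaged lower per barcode, at 0.712% and 0.725% in the hypostome libraries, against 0.915% at 0 h and 0.836% at 4 h.

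**Figure D4:**
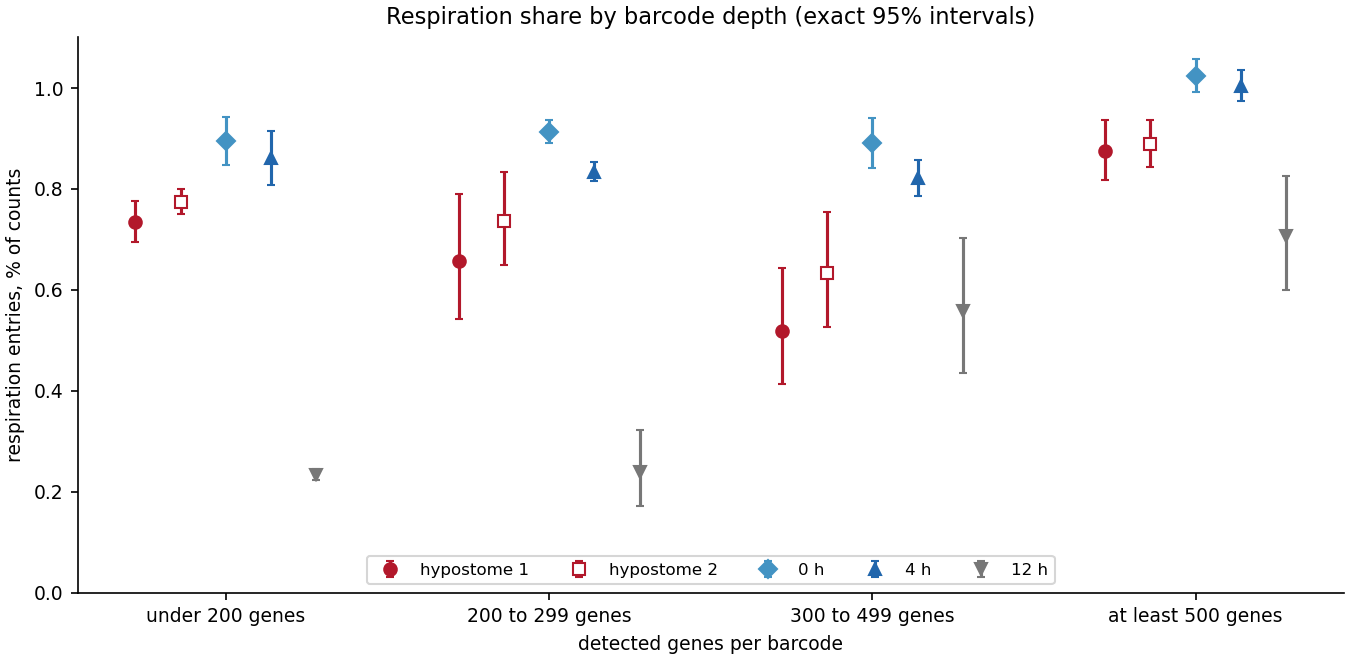
Summed share of the 101 respiration entries in barcodes of 4 depth classes by number of detected genes, with exact 95% binomial intervals; red symbols are the hypostome libraries, blue symbols 0 h and 4 h and grey symbols 12 h. The hypostome libraries lie below 0 h and 4 h in each class, and each library has its highest share in the deepest class.

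Cell type markers moved with the same contrast, as given above for nematocyte and endodermal entries. Ectodermal epithelial entries made up 0.590% and 0.693% of counts in hypostome 1 and hypostome 2, against 0.375% at 0 h and 0.332% at 4 h. The ectodermal list takes in KS1 entries, which made up 0.366% and 0.383% in the hypostome libraries, against 0.0629% at 0 h and 0.0390% at 4 h. Its higher share is therefore not separate from that of the head marker. KS1 counts also enter the choice of ectodermal-bearing barcodes. Among barcodes without a nematocyte marker count the respiration share was 0.888% and 0.812% in hypostome 1 and hypostome 2, against 0.922% at 0 h and 0.843% at 4 h, so the groups overlapped. Among nematocyte-bearing barcodes, of which there were 14 and 17 in the hypostome libraries and 23 and 39 at 0 h and 4 h, it was 0.761% and 0.764%, against 0.867% at 0 h and 0.810% at 4 h. Among endodermal-bearing barcodes it was 0.675% and 0.775%, against 0.955% at 0 h and 0.849% at 4 h. Among ectodermal-bearing barcodes, only 15 and 14 in the hypostome libraries and 9 and 8 at 0 h and 4 h, the order was not the same, at 0.735% and 0.809% in the hypostome libraries, against 0.646% at 0 h and 0.735% at 4 h. Gland-bearing barcodes overlapped between the groups, at 0.725% and 0.816%, against 0.879% at 0 h and 0.742% at 4 h. They numbered only 4 and 8 in the hypostome libraries, against 235 at 0 h and 58 at 4 h. Neuron-bearing barcodes also overlapped, at 0.631% and 0.939%, against 0.877% at 0 h and 1.002% at 4 h. They numbered 9 and 7 in the hypostome libraries, with only 1 at 0 h and 4 at 4 h, too few for a comparison. Neuron entries, which include neuropeptides, made up 1.30% and 0.462% in the hypostome libraries, against 0.160% at 0 h and 0.169% at 4 h, and gland cell entries 0.420% and 0.908%, against 0.868% at 0 h and 0.596% at 4 h. Of the neuron counts, a polRFamide neuropeptide entry, MSTRG.19311, gave 9650 and 501 CPM in hypostome 1 and hypostome 2, against 2.48 at 0 h and 11.8 at 4 h, with 0 counts at 12 h. The part of these cell types in the respiration result was not tested further.

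Most lists of genes that act beside the chain also had negative median fold changes in the same fit. The 2 ADP,ATP carrier entries, which exchange ADP for ATP across the inner membrane, made up 0.353% and 0.307% in hypostome 1 and hypostome 2, against 0.456% at 0 h and 0.367% at 4 h. Cytochrome c, MSTRG.20041, had 850 and 941 CPM in the hypostome libraries, against 1054 at 0 h and 1276 at 4 h (fold change of -0.52 ± 0.28 on the log2 scale; adjusted p = 0.339 in edgeR). Mitochondrial ribosomal proteins, which translate the mitochondrial subunits, had a median log2 fold change of -0.52, with 0 of 37 called, and 4 with an unadjusted p under 0.05. Mitochondrial import and folding entries had a median of -0.34 with 0 of 21 called, and the voltage-dependent anion channel and phosphate carrier entries -0.33 with 0 of 2. Other citric acid cycle enzymes had -0.56 with 0 of 10, and superoxide dismutases and peroxiredoxins -0.72 with 0 of 6. In the citric acid cycle list the entry of most counts, Sc4wPfr_5.2.g10986, was described as trans-homoaconitate synthase, by name not an enzyme of the cycle (log2 fold change of -0.81 ± 0.31).

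The cytosolic ribosomal proteins, which are not mitochondrial, had a median of -0.49, with 0 called higher and 1 lower of 109, and made up 12.0% and 13.0% of counts in hypostome 1 and hypostome 2, against 15.5% at 0 h and 15.6% at 4 h. The ratio of their summed shares, 0.804, was lower than the 0.903 of the respiration entries; the difference between these ratios was not tested. Glycolysis entries had a median of 0.00 (0 of 13 called), and pyruvate dehydrogenase complex entries 0.23 (0 of 9). The pyruvate dehydrogenase complex, which feeds the citric acid cycle, was the one mitochondrial or metabolic list whose summed share was higher in both hypostome libraries, at 0.0425% and 0.0407%, against 0.0332% at 0 h and 0.0318% at 4 h. Of the cytochrome c and electron carrier entries edgeR called 0 of 6.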

How the data were processed

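The deposited files give raw counts of each entry in each barcode, made by the authors with kallisto 0.46.1, per the submitters' processing notes; the genome build, the annotation and any collapsing of reads are not given in the sources used here. Entries pair an identifier with a description that lacks hyphens, and 0 identifiers matched the reference gene table, so no positions or sequences are given. Counts were summed per library over barcodes with at least 200 detected genes, without MSTRG.22171. Doublets were not called or removed. No barcode profile was identical in different libraries (0 found). edgeR 4.0.16 (TMM, filterByExpr, quasi-likelihood, Benjamini-Hochberg over all entries) tested hypostome 1 and hypostome 2 against 0 h and 4 h; DESeq2 1.42.0 and limma 3.58.1 were alternatives, and the edgeR step was tested on simulated data. Summed shares have exact Clopper-Pearson 95% intervals and ratios exact conditional binomial intervals, which cover counting error only. Marker-bearing barcodes had at least 3 counts and 2% of counts from a list, and levels there leave that list out of the total.

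The members and lists were chosen with earlier results of these data known. List patterns were adapted to the tables' spelling, with some unrelated matches removed, after the entry names were seen. Not all were removed, as the trans-homoaconitate synthase entry in the citric acid cycle list shows. Named entries are the 4 tested members with most counts of each complex, the 3 highest and 3 lowest fold changes, the 3 highest and 3 lowest ratios of 4 h over 0 h, and up to 2 entries of most counts from other lists. Given with values outside this rule are MSTRG.22444, Sc4wPfr_224.g18103, MSTRG.12866, MSTRG.4259, Sc4wPfr_173.2.g32983 and Sc4wPfr_1096.g19444. Entries said to be singled out after their values were seen are also outside it.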

Additional observations from a re-analysis of the deposited data

Results flagged for a closer look

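Barcodes with under 200 detected genes were used in no comparison above except the alternative with all deposited barcodes, and they held respiration counts above what a count of 0 allows in every library. The respiration share in them was 0.735% in hypostome 1 and 0.775% in hypostome 2, against 0.894% in the 0 h, 0.861% in the 4 h and 0.234% in the 12 h library. The hypostome libraries lay below 0 h and 4 h there too, and 12 h had the lowest share.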

How the results depend on the processing

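The counts limit these results. After the cut, 110 of 1008 and 168 of 2390 hypostome barcodes stand against 2332 of 2946 at 0 h and 2782 of 3238 at 4 h. In addition, 40 of 101 respiration entries were too low to test. No paired analysis was possible because the 0 h and 4 h libraries are 1 each and carry no replicate number shared with hypostome 2. Of the results that answer a comparison, 34 values under alternatives were close to the reported ones and 35 moved; of the fold changes of named entries 402 kept direction and call, 51 changed sign and 4 became called; of the ratios of single complexes 19 of 72 lay on the other side of 1, 4 of them with MSTRG.22171 kept and 5 with 12 h added; and of the 4 h over 0 h ratios of named entries 36 stayed close and 4 moved. The cause of these changes was not tested.

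The number of all entries called was 240; it was 0 with limma, in barcodes with at least 500 genes and with 12 h added (1439, 516 and 341 at an unadjusted p under 0.05), 132 after thinning, 549 with library totals, 816 with 1 term per time point, 974 with no filter, and 3 to 377 leaving out 1 library, the 3 without hypostome 1. The number of respiration entries called was 0, but 2 with no filter (Sc4wPfr_356.g7150 and MSTRG.23508, both lower), 1 with 1 term per time point and 0 to 1 leaving out 1 library (Sc4wPfr_356.g7150, without 0 h). Their median of -0.32 was -0.19 with library totals, -0.91 with no filter, -0.38 with MSTRG.22171 kept, -0.020 in barcodes with at least 500 genes, -0.090 after thinning, -0.13 with 12 h added, and -0.61 to -0.19 leaving out 1 library, lowest without hypostome 2 and highest without 4 h. The medians of all entries in the same fits were -0.05 as reported, 0.07, -0.84, -0.06, -0.002, 0.01 and 0.002, with -0.33 without hypostome 2 and 0.02 without 4 h, so with no filter and without hypostome 2 the median of all entries moved down as well. The ratio of summed shares, 0.903, was 1.11 with MSTRG.22171 kept, 0.859 with all barcodes, 0.870 in barcodes with at least 500 genes, 0.827 with TMM factors, 1.06 with 12 h added and 0.871 to 0.937 leaving out 1 library. The 2 entries at least 2-fold different at 4 h became 5 with TMM factors (all higher), 5 at a minimum of 20 counts (4 higher, 1 lower), 1 at a minimum of 100, 10 at 1.5-fold (7 higher, 3 lower), 5 with MSTRG.22171 kept (all lower), 1 in barcodes with at least 500 genes and 1 with 4 h thinned to the 0 h total.

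Log2 fold changes of named entries that changed sign, none of them called in either case, were these. With limma Sc4wPfr_96.g11948 was 0.040 and Sc4wPfr_1593.g7865 -0.23. With library totals Sc4wPfr_96.g11948 was 0.016, MSTRG.11737 0.094 and Sc4wPfr_248.g29618 0.070. With all deposited barcodes Sc4wPfr_96.g11948 was 0.087, Sc4wPfr_1593.g7865 -0.0075 and the capitalised MSTRG.14119 entry -0.21. With 1 term per time point Sc4wPfr_96.g11948 was 0.032, and at a minimum of 20 CPM MSTRG.11737 was 0.018. With no filter Sc4wPfr_1593.g7865 was -0.31, Sc4wPfr_1806.g25253 -0.40, the capitalised MSTRG.14119 entry -0.51 and Sc4wPfr_1007.g33081 -0.48. With MSTRG.22171 kept the capitalised MSTRG.14119 entry was -0.031 and Sc4wPfr_1007.g33081 -0.0043. In barcodes with at least 500 genes Sc4wPfr_608.1.g30577 was 0.18, MSTRG.11737 0.18, Sc4wPfr_854.g18478 0.40, Sc4wPfr_1138.g31304 0.015, Sc4wPfr_593.g21580 0.11, MSTRG.3540 0.29, Sc4wPfr_177.1.g6161 0.027, Sc4wPfr_854.g18411 0.13, Sc4wPfr_264.g27472 0.0096 and Sc4wPfr_144.2.g1680 0.059. After thinning MSTRG.11737 was 0.061, MSTRG.3540 0.23, MSTRG.24776 0.048, Sc4wPfr_177.1.g6161 0.067 and Sc4wPfr_248.g29618 0.16. With 12 h added Sc4wPfr_1593.g7865 was -0.048, Sc4wPfr_593.g21580 0.096, MSTRG.3540 0.29, Sc4wPfr_177.1.g6161 0.32 and Sc4wPfr_248.g29618 0.21. Leaving out 1 library at a time, Sc4wPfr_1593.g7865 ran from -1.47 (without hypostome 2) to 0.73, MSTRG.11737 from -0.49 to 0.19, MSTRG.16807 from -2.03 to 0.30, MSTRG.24776 from -1.16 to 0.23, Sc4wPfr_1806.g25253 from -0.20 to 0.22, MSTRG.24627 from -0.71 to 0.17, the capitalised MSTRG.14119 entry from -0.42 to 0.23, Sc4wPfr_248.g29618 from -0.19 to 0.012 and Sc4wPfr_1007.g33081 from -0.099 to 0.29.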
